A study of Mus musculus with 8 samples.

Results

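The genes described here encode 10 surface proteins by which B cell activation and maturation are commonly followed: Cd83, Cd86, Cd80, Cd69, Cd44, Icam1, Cd38, Cd5, Cd24a and Ly6d. They were taken as the rows of the gene count table with exactly these symbols, 10 of 24054 named genes, and all 10 were found. Transcripts were measured by polyA RNA sequencing in 8 libraries from stable derivatives of WEHI-231, which is a mouse lymphoma line with the features of an immature B cell. The 4 groups of 2 libraries were the control line without stimulation, the control line given anti-IgM at 2 ug/ml for 14 h, and the line named for miR-148a under each of these conditions. Anti-IgM is an antibody that crosslinks the B cell receptor. Each genotype is a single stable line of a tumour cell, so a difference between lines is one between these cultures. How the microRNA was introduced, and whether a line came from 1 clone, is not given in the sources used here.

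A mature B cell whose receptor binds antigen displays costimulatory ligands for T cells, CD80 and CD86, and the activation proteins CD69 and CD83, and raises adhesion molecules such as CD44 and ICAM-1. Immature B cells react to the same signal with arrest, receptor editing or death, and WEHI-231 has long been used as a model of that response. CD24 and Ly6D are small proteins held to the membrane by a lipid anchor and are high on young B lineage cells, CD38 is an enzyme that consumes NAD and is high on mouse B cells outside germinal centres, and CD5 is a negative regulator of receptor signalling.

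A microRNA pairs with messenger RNA mainly through its seed, bases 2 to 8. The first sequence below is mature miR-148a from RefSeq, encoded at chr6:51269829-51269850 on the minus strand of GRCm38.p6, with the seed in capitals, shown because 1 of the lines carries its name. Of the 10 members, none held a match to the whole seed in the 3' UTR of its longest coding transcript in GENCODE M21, where 15.1% of 10468 tested genes with an annotated 3' UTR held one. Cd86 held 2 of the shorter matches to seed bases 2 to 7 followed by A, and those sites are printed from its messenger with the match in capitals, at chr16:36605087-36605108 and chr16:36604565-36604586 on the minus strand, 262 and 784 bases after the stop codon. Counting also that shorter match, 22.1% of those genes held a site.
miR-148a-3p: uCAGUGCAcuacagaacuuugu
Cd86 site 1: ggccaagaGCACTGAaatggct
Cd86 site 2: agcaggcaGCACTGAagaaagc

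RefSeq promoters, 250 bases before to 50 after an annotated start in GRCm38.p6, were given for 5 of the 10 members, Cd80, Cd44, Icam1, Cd38 and Cd5. The printed ones belong to a member that fell in both lines with anti-IgM (Icam1), to one that rose in both (Cd38) and to one that differed between the lines (Cd44). Capitals mark the bases from the start on. Icam1 lies at chr9:21015690-21015989 on the plus strand, Cd38 at chr5:43868559-43868858 on the plus strand and Cd44 at chr2:102901616-102901915 on the minus strand.
Icam1: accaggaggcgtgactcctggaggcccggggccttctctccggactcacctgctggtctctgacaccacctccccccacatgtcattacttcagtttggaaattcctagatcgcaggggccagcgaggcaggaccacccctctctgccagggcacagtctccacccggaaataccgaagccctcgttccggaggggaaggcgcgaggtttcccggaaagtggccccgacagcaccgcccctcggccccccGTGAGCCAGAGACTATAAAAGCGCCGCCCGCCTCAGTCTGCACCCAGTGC
Cd38: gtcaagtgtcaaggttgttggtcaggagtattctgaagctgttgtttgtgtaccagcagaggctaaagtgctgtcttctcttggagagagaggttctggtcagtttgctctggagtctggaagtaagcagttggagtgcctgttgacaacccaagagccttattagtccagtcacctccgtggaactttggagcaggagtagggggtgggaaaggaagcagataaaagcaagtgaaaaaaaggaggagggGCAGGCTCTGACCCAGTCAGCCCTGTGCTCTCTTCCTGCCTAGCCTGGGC
Cd44: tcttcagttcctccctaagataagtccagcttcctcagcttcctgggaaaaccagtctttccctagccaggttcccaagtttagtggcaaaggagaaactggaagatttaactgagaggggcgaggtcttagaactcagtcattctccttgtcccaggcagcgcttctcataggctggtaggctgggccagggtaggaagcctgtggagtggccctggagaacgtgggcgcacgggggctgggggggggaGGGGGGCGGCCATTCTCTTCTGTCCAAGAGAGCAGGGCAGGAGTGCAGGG

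These windows were searched on both strands for the kB consensus bound by NF-kB, a consensus of EBF1, TGANTCA (AP-1) and TGTTTAC (FOXO), which occurred in 8.46%, 0.904%, 7.81% and 3.65% of 32851 promoters of the same length. The only match in the 5 windows was TGATTCA in Cd80, at positions -42 to -36 from the start. TGANTCA is its own reverse complement, so any match to it is found on both strands. The Icam1 window holds TGGAAATTCC, which departs from the kB consensus searched at its first letter only and so was not counted. No match says only that these letters are not in this window.

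Libraries held 5810227 to 18660373 counts, and the anti-IgM replicate 1 libraries of both lines were the smallest. Levels are given as CPM, counts scaled to the total of each library with TMM factors, and 3 counts corresponded to 0.166 to 0.502 CPM. B cell identity was checked on 7 markers (Cd79a, Cd79b, Pax5, Ebf1, Blnk, Ms4a1 and Cd22), which summed to 1808 to 2075 CPM in 6 libraries and to 2335 and 2624 CPM in the anti-IgM libraries of the miR-148a line. Because several members also mark other cells, 24 markers of T cells, macrophages, dendritic cells and fibroblasts were read, and 23 were in the table. Of these, 7 had 0 counts in all libraries, Lyz2, S100a8, S100a9 and Siglech among them, and 3 passed the filter on low counts. The highest were Xcr1 (0.646 to 3.33 CPM) and Zbtb46 (0.942 to 2.91 CPM) of the dendritic list. Emr1 of the macrophage list reached 1.39 CPM. Each of the 4 lists summed to at most 4.52 CPM per library. The dendritic list summed to 3.92 and 4.52 CPM in the unstimulated miR-148a libraries and to 2.34 to 4.32 CPM in the others, and its part was not tested. The macrophage list summed to 1.64 and 2.40 CPM in the anti-IgM libraries of the miR-148a line and to 0.502 to 2.17 CPM in the others, and its part in the results was not tested. Mature miR-148a is not read by polyA sequencing, so the label of that line was not checked on it. Each replicate number was 1 sequencing run holding a library of every group, and the text calls these the first and the second run.

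Levels between genes were compared as CPM per kilobase of exon. In the unstimulated control line Ly6d stood highest, at 1041 ± 85.9 CPM per kb (SD, n = 2), followed by Cd24a at 630 ± 70.2 CPM per kb (SD, n = 2). Icam1 (32.2 ± 5.68 CPM per kb) and Cd44 (29.7 ± 2.29 CPM per kb) came next and overlapped, as did Cd69 (11.0 ± 2.03 CPM per kb) and Cd5 (10.3 ± 1.77 CPM per kb). Cd38 was at 5.72 ± 0.323, Cd83 at 1.95 ± 0.751, and Cd80 (0.151 ± 0.0408) and Cd86 (0.104 ± 0.0542) lay at the bottom without separation, all in CPM per kb. The lipid-anchored Ly6d and Cd24a thus formed a tier of their own above the other members, and the costimulatory pair lay near the detection floor.

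With anti-IgM the order changed at the top and in the middle. Cd24a passed above Ly6d in both lines, at 487 ± 81.6 against 236 ± 12.8 CPM per kb in the control line and 575 ± 26.8 against 414 ± 88.8 CPM per kb in the miR-148a line (SD, n = 2). Cd38 moved from the seventh place to the fifth in the control line (16.5 ± 1.77 CPM per kb, overlapping Icam1) and to the fourth in the miR-148a line (17.8 ± 1.60 CPM per kb). There it stood above Cd44 at 14.6 ± 1.93 CPM per kb. These lengths are those of the GENCODE M21 exon union, since the annotation used for counting is not given in the sources used here.

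**Figure D1:**
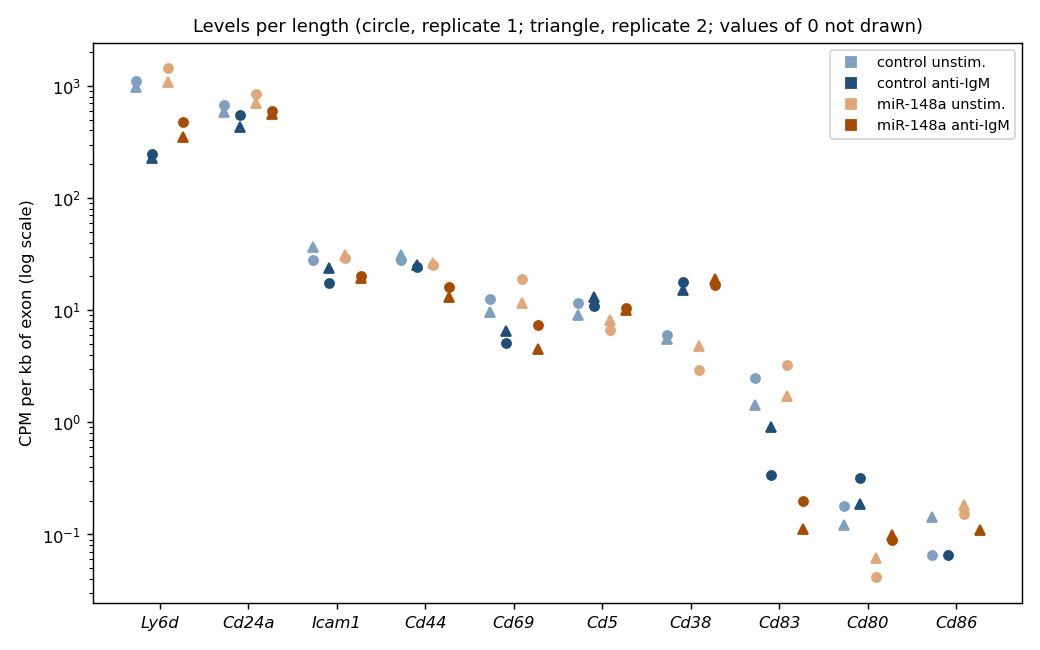
Level of each member per length (CPM per kilobase of exon, log axis) in each library, coloured by group, with circles for replicate 1 and triangles for replicate 2; values of 0, seen for Cd86 in 2 libraries, are not drawn. Ly6d and Cd24a stand above the others in every group and Cd80 and Cd86 are lowest by mean, with Cd83 down at their level in replicate 2 of the stimulated miR-148a line (0.112 CPM per kb), while Cd38 and Ly6d change places with their neighbours when anti-IgM is given.

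The first question was how these transcripts respond to receptor crosslinking in each line. With anti-IgM, Cd38 rose 2.86-fold in the control line, Ly6d fell 4.41-fold and Icam1 fell 1.54-fold. The miR-148a line had Cd38 4.66-fold higher, and its Cd83, Ly6d, Cd69, Cd44, Icam1 and Cd24a fell. In the control line Cd83, Cd69, Cd44 and Cd24a were also lower but not called. With the replicate number as a block these 4 were called lower there too. Of the tested activation and adhesion members, Cd83, Cd69, Cd44 and Icam1, none was called higher in either line. Such changes are of RNA in whole cultures, where fewer cells of a kind and less RNA per cell cannot be told apart.

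Of the members, 8 could be tested, since Cd80 and Cd86 were under the filter on low counts. In the control line 1 of them was called higher and 2 lower, where 9.6% of 11291 genes were called higher and 7.45% lower. The miR-148a line had 1 called higher and 6 lower, against 14.7% and 14% of genes. Cd83, 1 of these 6, passed the low-count filter through its unstimulated libraries, the side where it is high, and it also enters the medians below. With the replicate number as a block, 1 and 6 were called in the control line (17.6% and 17.2% of genes) and 2 and 6 in the miR-148a line (22.8% and 23.3%). The median log2 change of the tested members was -0.50 in the control line and -0.72 in the miR-148a line, and that of all genes was 0.01 and 0.002. Anti-IgM and unstimulated libraries did not overlap for 7 of the 8 in the control line, all but Cd5, and for 8 of 8 in the miR-148a line. Of all 11291 genes, 59.5% and 65.4% did not overlap either, so lack of overlap between groups of 2 is common here and sets no member apart. Between the lines, 44.3% of genes did not overlap without stimulation and 43.8% with anti-IgM, which applies to the line comparisons below.

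**Figure D2:**
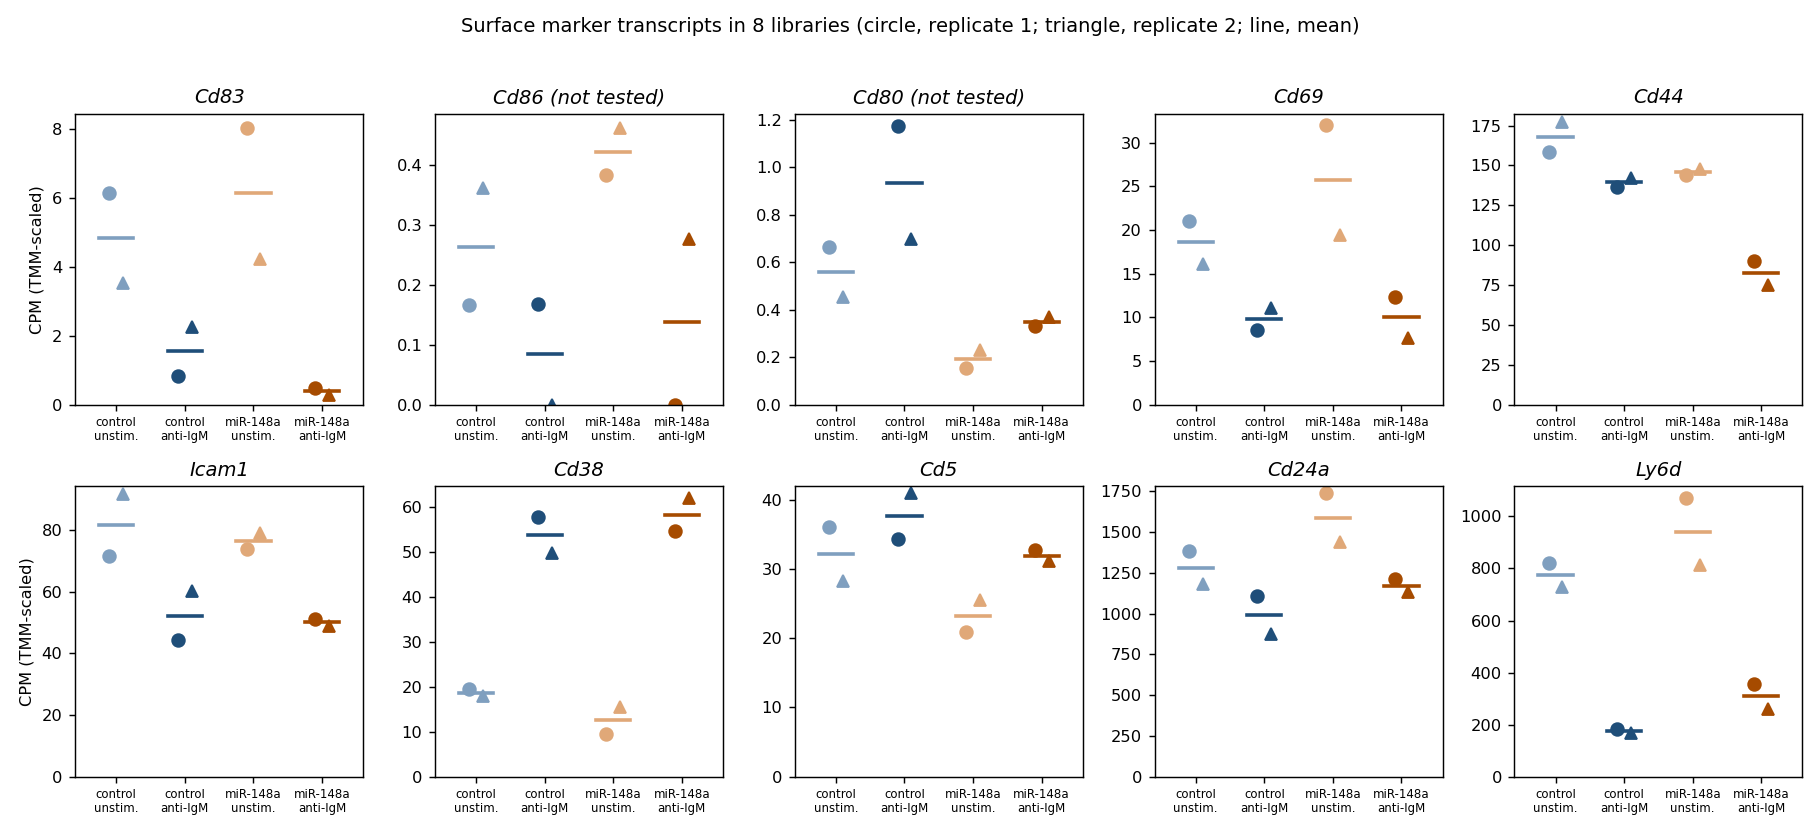
CPM of each member in the 8 libraries, on linear axes from 0 that differ between panels; circles are replicate 1, triangles replicate 2 and lines the mean of 2. Cd38 is higher and Ly6d, Cd69, Icam1 and Cd83 are lower in every anti-IgM library than in the unstimulated libraries of the same line.

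Cd83 (chromosome 13, 43784775 to 43803132, GRCm38) encodes an immunoglobulin-like protein that stabilises MHC class II and CD86 on the surface of activated B cells and dendritic cells. It stood in the control line at 6.152 and 3.52 CPM unstimulated and at 0.837 and 2.26 CPM with anti-IgM, replicate 1 before replicate 2 here and below. The miR-148a line had 8.04 and 4.23 CPM unstimulated and 0.493 and 0.277 CPM stimulated, which are 3 counts in each anti-IgM library. Every anti-IgM library was thus below every unstimulated one, and the miR-148a line was the lower of the stimulated lines in both runs.

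The fall of Cd83 in the miR-148a line had a log2 change of -4.06 ± 0.66 (SE; adjusted p = 0.00251, and 4.84e-05 with no filter on low counts). From the summed counts, 160 unstimulated and 6 with anti-IgM, the ratio was 17.3-fold with a 95% counting interval of 7.78 to 47.9. For the control line the log2 change was -1.53 ± 0.50 with an interval of -2.67 to -0.40, and it did not pass (adjusted p = 0.0675, and 0.0131 with the replicate block). The run values there were unequal, -2.64 in the first and -0.60 in the second run, and the stimulated library of the first run was the shallowest of all. Whether depth had a part in this was not tested. Cd83 passed the low-count filter through its unstimulated libraries, the side where it is high, and the fitted change of the miR-148a line rests on 3 counts in each stimulated library.

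Cd80 and Cd86 encode the ligands of CD28 and CTLA-4 on T cells. Cd80 (chromosome 16, 38455561 to 38496335) had 12 and 5 counts unstimulated and 7 and 8 counts with anti-IgM in the control line, and 2 and 3, then 2 and 4 counts in the miR-148a line. That is at most 1.17 CPM in any library. From summed counts, the anti-IgM to unstimulated ratio of Cd80 was 1.47 in the control line, with a counting interval of 0.684 to 3.13 that spans no change. The miR-148a to control ratio was 0.329 without stimulation (0.0948 to 0.928) and 0.413 with anti-IgM (0.131 to 1.13). Each miR-148a library lay below each control library, but neither line difference passed when no filter was applied (adjusted p = 0.627 and 0.560). Of all genes tested, 44.3% without stimulation and 43.8% with anti-IgM did not overlap between the lines either.

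Cd86 (chromosome 16, 36603869 to 36666081) had 22 counts over all 8 libraries. The control line held 3 and 4 of them unstimulated and 1 and 0 stimulated, and the miR-148a line 5 and 6, then 0 and 3. No library exceeded 0.461 CPM, most were at or near the 3 counts taken as the floor, and no difference in Cd86 was detectable at this depth. Per length, Cd80 reached at most 0.316 and Cd86 at most 0.182 CPM per kb in any library, whereas Cd69 was never below 4.54 CPM per kb.

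Cd69 (chromosome 6, 129267325 to 129275436) encodes a lectin-like early activation protein that holds the receptor S1PR1 inside the cell. It was at 21.0 and 16.2 CPM unstimulated and 8.54 and 11.0 CPM with anti-IgM in the control line. Values of the miR-148a line were 32.0 and 19.4 CPM and then 12.3 and 7.66 CPM. Stimulated libraries were lower in both lines without overlap. The miR-148a line showed a fall of Cd69, -1.41 ± 0.30 as log2 change (adjusted p = 0.00776), while the value of -0.91 ± 0.30 in the control line did not pass (adjusted p = 0.0670, and 0.00558 with the replicate block). The call was lost without the first unstimulated (-1.004, adjusted p = 0.0573) or the second stimulated library of that line (-1.06, adjusted p = 0.0821).

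Icam1 (chromosome 9, 21015985 to 21028817) encodes the ligand of the integrin LFA-1. Its levels were 71.5 and 91.9 CPM unstimulated and 44.2 and 60.4 CPM with anti-IgM in the control line, and 74.0 and 79.0, then 51.3 and 49.0 CPM in the miR-148a line. Stimulated libraries were the lower in both lines, without overlap. Icam1 fell, with a log2 change of -0.63 ± 0.16 for the control line (adjusted p = 0.0327) and one of -0.61 ± 0.17 for the miR-148a line (adjusted p = 0.0235). The first call was lost when the second unstimulated control library (adjusted p = 0.175), the first stimulated control library (0.161) or the first unstimulated miR-148a library (0.0505) was left out, and when the 4 libraries of that line were fitted alone (0.0643). The second was lost without any 1 of the 4 miR-148a libraries (adjusted p of 0.0534 to 0.119). Icam1 shares 511 exonic bases with the antisense gene Gm47079, and whether the counting used strand is not given in the sources used here.

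Cd44 (chromosome 2, 102811141 to 102901665), the hyaluronan receptor, was at 159 and 177 CPM unstimulated and 136.6 and 142 CPM with anti-IgM in the control line. For the miR-148a line the values were 144 and 148 CPM and then 90.3 and 74.8 CPM, so the stimulated miR-148a libraries were the lowest of all 8. Cd44 fell in that line, with a log2 change of -0.82 ± 0.12 (adjusted p = 0.00150) that held without any 1 library. The control line changed by -0.27 ± 0.12 (adjusted p = 0.148, and 0.0366 with the replicate block).

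Cd38 (chromosome 5, 43868553 to 43912375) was the 1 member called higher in each line. It went from 19.5 and 17.96 CPM to 57.9 and 49.7 CPM in the control line and from 9.50 and 15.6 CPM to 54.6 and 62.0 CPM in the miR-148a line. Stimulated libraries of the lines overlapped, while both unstimulated miR-148a libraries lay below both unstimulated control libraries (44.3% of genes did not overlap there). The log2 changes were 1.51 ± 0.20 (adjusted p = 0.00219) and 2.22 ± 0.20 (adjusted p = 0.000372), and both calls held without any 1 library.

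Cd5 (chromosome 19, 10717116 to 10739002) encodes a scavenger-receptor family protein that recruits the phosphatase SHP-1, the product of Ptpn6. It was at 36.1 and 28.3 CPM unstimulated and 34.3 and 41.0 CPM with anti-IgM in the control line, where the groups overlapped and the runs differed in sign (-0.07 and 0.53). The miR-148a line stood at 20.9 and 25.5, then 32.7 and 31.2 CPM, without overlap. Neither response of Cd5 passed, with log2 changes of 0.23 ± 0.15 (adjusted p = 0.353) and 0.46 ± 0.16 (adjusted p = 0.0602, and 0.0189 with the replicate block).

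Cd24a (chromosome 10, 43578284 to 43584265) and Ly6d (chromosome 15, 74762056 to 74763620) are the abundant members, with 115712 and 55424 counts over the 8 libraries. Ly6d was at 819 and 729 CPM unstimulated and 182 and 169 CPM with anti-IgM in the control line. For the miR-148a line it was 1071 and 812 CPM, then at 355 and 261 CPM. The stimulated control libraries were the lowest and the stimulated miR-148a libraries next, without overlap (43.8% of genes did not overlap there). As log2 changes, Ly6d fell with -2.14 ± 0.18 in control cells (adjusted p = 0.000507) and -1.61 ± 0.17 in miR-148a cells (adjusted p = 0.000557), and both calls held without any 1 library.

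Cd24a moved less. It was at 1382 and 1180 CPM unstimulated and at 1108 and 873 CPM with anti-IgM in the control line, a log2 change of -0.37 ± 0.14 that did not pass (adjusted p = 0.104, and 0.000922 with the replicate block). Cd24a fell in the miR-148a line, where 1737 and 1441 CPM unstimulated stood against 1209 and 1132 CPM with anti-IgM (log2 change -0.44 ± 0.14, adjusted p = 0.0443). That call was lost without replicate 1 of the unstimulated group (adjusted p = 0.271) and without replicate 1 (0.0732) or 2 (0.179) of the anti-IgM group of that line. A stretch of 218 bases of Cd24a is 96.8% identical to the gene Gm6212, which is not a row of the table, so reads from that copy could be counted under Cd24a.

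**Figure D3:**
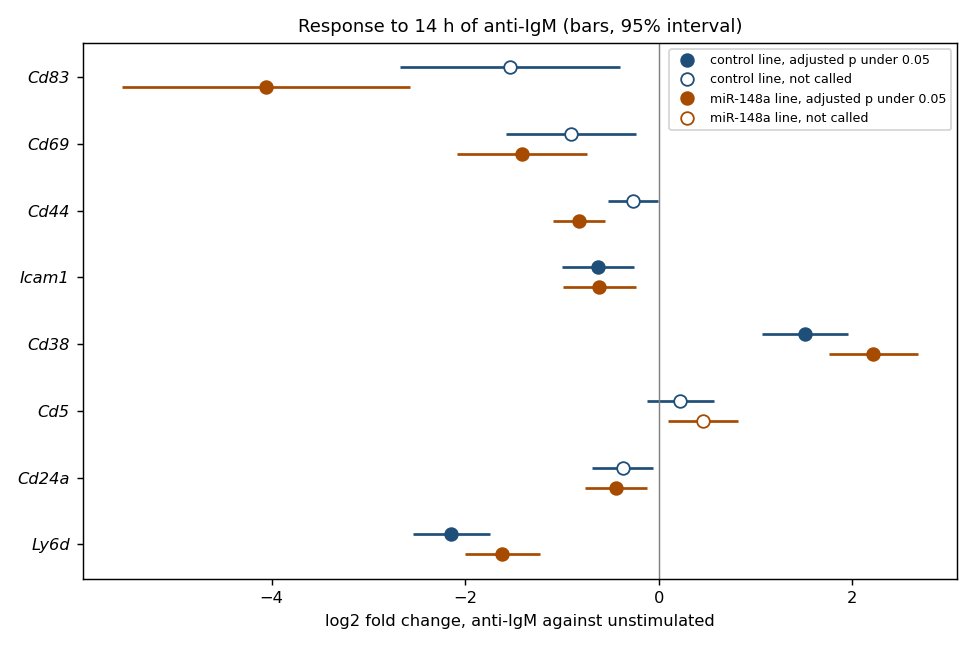
Log2 fold change of each tested member with anti-IgM in the control line (blue) and the miR-148a line (orange), with 95% intervals; filled points passed an adjusted p of 0.05. Cd38 lies to the right in both lines at 1.51 and 2.22, Ly6d to the left at -2.14 and -1.61, and Cd83 reaches -4.06 in the miR-148a line with the widest interval.

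The second question was whether the lines differed. Without stimulation, no tested member was called by edgeR, where 0.487% of genes were called in either direction, and 2 members had an unadjusted p under 0.05, Cd5 and Cd38, as had 11.4% of all genes. The differences of these 2, miR-148a line against control line, were -0.48 ± 0.15 for Cd5 (adjusted p = 0.257) and -0.58 ± 0.21 for Cd38 (adjusted p = 0.308) as log2 changes. With the replicate block 7.29% of genes were called, among them Cd5 (adjusted p = 0.0432) and Cd24a, higher at 0.31 ± 0.07 (adjusted p = 0.0152). DESeq2 called no member. The difference of Icam1 had an interval of -0.45 to 0.27.

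With anti-IgM the stimulated lines differed in 2 tested members, Cd44 and Ly6d, where 2.52% of genes were called in either direction. Cd44 was lower in the miR-148a line, 82.6 ± 10.9 against 139 ± 4.0 CPM (SD, n = 2), which is -0.76 ± 0.12 as log2 change (adjusted p = 0.0195). Ly6d was higher, 308 ± 66.1 against 176 ± 9.55 CPM (SD, n = 2), by 0.81 ± 0.17 (adjusted p = 0.0470). Run values were -0.60 and -0.93 for Cd44 and 0.96 and 0.63 for Ly6d.

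The call of Ly6d was lost without any 1 of the 8 libraries (adjusted p of 0.0540 to 0.259) and that of Cd44 without either anti-IgM control library (0.0684 and 0.138) or the second stimulated miR-148a library (0.107). Neither was called in the 4 anti-IgM libraries alone (adjusted p = 0.0792 for Cd44 and 0.0832 for Ly6d). With the replicate block both were called, at 0.000207 and 8.44e-05, in a fit that called 16.1% of genes.

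Cd83 held 6 counts in the stimulated miR-148a line against 31 in the stimulated control line, a ratio of 0.20 with a counting interval of 0.0682 to 0.486. Its log2 change of -2.20 ± 0.78 did not pass (adjusted p = 0.181), and with the replicate block it did (-2.28 ± 0.71, adjusted p = 0.0417). It entered this test only through the unstimulated libraries, since it is too low to be fitted in the 4 stimulated libraries alone. Its run values were -0.60 and -2.42, and without the second stimulated control library the change was -1.20 (adjusted p = 0.648). The block also called Cd24a, higher by 0.25 ± 0.07 (adjusted p = 0.0263). Cd69, Icam1 and Cd38 differed by -0.05, -0.08 and 0.13, with intervals of -0.79 to 0.69, -0.46 to 0.31 and -0.30 to 0.55, and the sign of the difference changed between the runs for each of these 3.

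**Figure D4:**
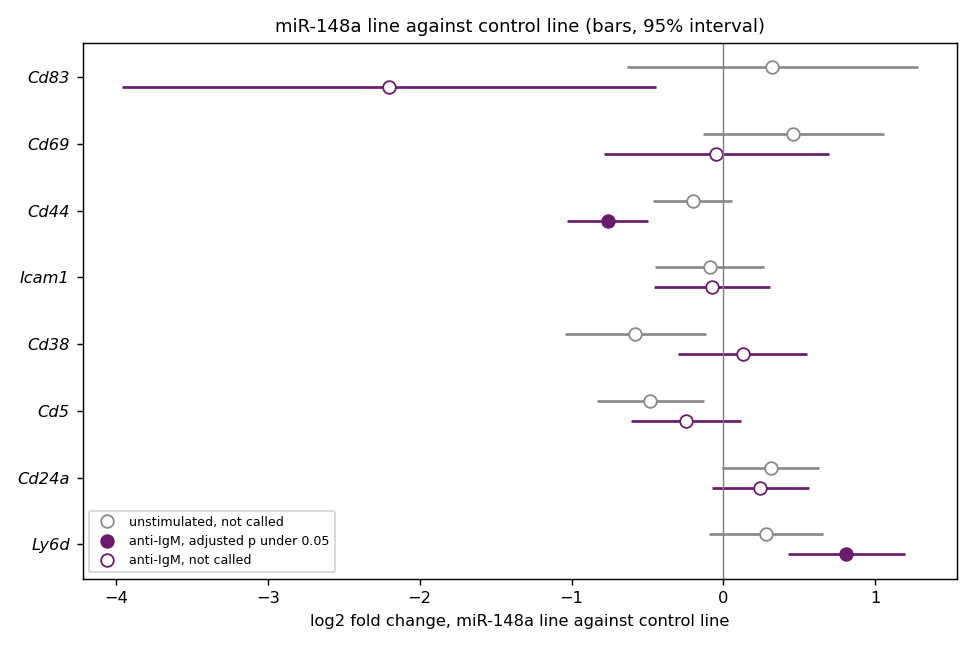
Log2 fold change of each tested member between the lines, miR-148a against control, unstimulated (grey) and with anti-IgM (purple), with 95% intervals; filled points passed an adjusted p of 0.05. Cd44 at -0.76 and Ly6d at 0.81 are the filled points, both with anti-IgM, and the interval of Cd83 with anti-IgM is the widest.

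Whether a response differed between the lines was tested as an interaction. None of 11291 genes was called by edgeR (0%, lowest adjusted p 0.985), with 484 at an unadjusted p under 0.05 and 1 called by DESeq2. With the replicate block 11 genes were called (0.0974%), none of them a member. The interaction of Cd44 was -0.56 ± 0.16 on the log2 scale with an interval of -0.93 to -0.19, and with the block its adjusted p was 0.105. That of Cd83 was -2.52 ± 0.89 (-4.53 to -0.51) and that of Cd38 0.71 ± 0.28 (0.08 to 1.34), with adjusted p of 0.210 and 0.232 in the block. The run values of Cd83 were -0.97 and -2.67, and its interaction was -1.52 without the second stimulated control library. Ly6d stood at 0.53 ± 0.24 (-0.01 to 1.06, adjusted p = 0.105 in the block). The differences of Icam1 (0.02) and Cd24a (-0.07) had intervals of -0.51 to 0.54 and -0.52 to 0.38. Calls of Cd83, Cd69, Cd44 and Cd24a in the miR-148a line alone are therefore not shown to be differences between the lines.

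Across the 8 libraries the members called lower in either line were alike to unequal degrees, and all points share the same libraries. Log2 CPM of Cd69 correlated with that of Ly6d at r = 0.902 and of Cd83 at 0.895, whereas Cd44 correlated with Ly6d at 0.449 and with Cd24a at 0.192. Cd38 ran opposite to Ly6d (-0.929) and Cd69 (-0.949). Among 10166 genes averaging 1 or more on the log2 CPM scale, the 3 closest to Cd83 were Tprgl (Pearson r = 0.990), Ankrd28 (0.986) and Farsa (0.986), and the 3 closest to Ly6d were Sfxn2 (0.996), Gm7120 (0.990) and Gtf2i (0.987). The closest gene to Cd69 was Luc7l (0.983), to Cd44 Glrx5 (0.998), to Icam1 Scaf4 (0.995), to Cd38 Apobec2 (0.998), to Cd5 Srpk3 (0.974) and to Cd24a Tmed6 (0.975). With 8 libraries these values are descriptions of likeness.

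Other activation and costimulation proteins of B cells, 18 genes in a list, gave 17 tested, and values here are log2 changes ± SE. For this and the following lists, 9.6% of all genes were called higher and 7.45% lower in the control line. The miR-148a line had 14.7% and 14%. With the block these were 17.6% and 17.2%, then 22.8% and 23.3%. Between the lines 0.487% were called without stimulation and 2.52% with anti-IgM (7.29% and 16.1% with the block). With anti-IgM 3 fell and none rose in the control line: Cd40, the receptor of T cell help, at -0.92 ± 0.16, the amino acid transporter chain Slc3a2 at -0.50 ± 0.10 and the transferrin receptor Tfrc at -0.49 ± 0.12. The same 3 fell in the miR-148a line (Tfrc -1.38 ± 0.12, Cd40 -1.08 ± 0.16, Slc3a2 -0.45 ± 0.10) and 2 rose, the MHC class II chain H2-Ab1 (1.28 ± 0.42) and Cd48 (0.45 ± 0.11). The block called 4 higher and 4 lower there. The medians were -0.04 and -0.07, near those of all genes. Between the stimulated lines Tfrc alone of the 17 was called, lower in the miR-148a line (-1.17 ± 0.12, adjusted p = 0.0109). The block called 3 lower there. Without stimulation none was called (1 higher and 3 lower with the block). H2-Ab1 was lower in the miR-148a line without stimulation, by -2.13 ± 0.39 (adjusted p = 0.0585, and 0.000244 with the block). With anti-IgM H2-Ab1 was still lower, by -1.27 ± 0.37 (adjusted p = 0.122, and 0.00398 with the block). The interaction of Tfrc, -0.89 ± 0.17, did not pass in the fit without the block and did with it (adjusted p = 0.00530).

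Other stage markers, 27 genes in a list, had 19 tested, while no row of the count table bore the symbol Ighm or Ighd. The control line had 4 rise and 2 fall (9 and 3 with the block), with Ly6a (1.66 ± 0.47), the homing receptor Ccr7 (1.65 ± 0.27), Spn (1.30 ± 0.28) and Cd1d1 (1.06 ± 0.30) changing most. Ly6a was low, with an average log2 CPM of 0.326 over all libraries, and its adjusted p was 0.0421. The miR-148a line had 7 rise and 1 fall (9 and 4 with the block), among them Ccr7 (2.24 ± 0.28), Spn (1.8 ± 0.30) and Cd1d1 (1.42 ± 0.31). The chemokine receptor Cxcr5 was the 1 that fell there, at -0.98 ± 0.17, and it fell with Ly6e in the control line (-0.99 ± 0.16 and -0.47 ± 0.14). The list medians were 0.10 and 0.46. Between the stimulated lines 2 were higher in the miR-148a line, the receptor chain Cd79a (0.52 ± 0.10) among them (5 higher and 1 lower with the block), and without stimulation none was called (3 and 4 with the block). The progenitor markers Il7r, Kit and Enpep had 0 counts, and Cd93 was at most 0.461 CPM.

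Ligands and partners of the members, 19 genes with 13 tested, gave 2 higher in the control line, the integrin chain Itgam (3.50 ± 0.40) and Cd97 (0.55 ± 0.11), or 4 higher and 2 lower with the block. The average log2 CPM of Itgam over all libraries was 1.69. Itgam was low without stimulation in both lines and passed the low-count filter through its anti-IgM libraries, the side where it is high. The miR-148a line had 5 rise and 1, Rdx (-0.31 ± 0.10), fall (8 and 1 with the block). Itgam was at 4.17 ± 0.39, the CD24 receptor Siglecg at 1.35 ± 0.37, Cd97 at 0.93 ± 0.11, S1pr1, which CD69 keeps from the surface, at 0.82 ± 0.20 and the integrin chain Itgb2 at 0.46 ± 0.10. Medians were 0.13 and 0.35. Between the stimulated lines S1pr1 (1.51 ± 0.22, adjusted p = 0.0163) and Cd97 (0.57 ± 0.11, adjusted p = 0.0400) were higher in the miR-148a line (4 higher and 1 lower with the block). Without stimulation none was called (1 higher and 1 lower with the block). There S1pr1 was already higher by 1.21 ± 0.22 (adjusted p = 0.0546, and 0.00151 with the block), and Cd97 by 0.19 ± 0.11. The interaction of S1pr1 was 0.30 ± 0.31. Cd28, Spp1 and Has2 had 0 counts in every library.

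Transcription factors of the activation programme, 23 genes with 22 tested, went both ways, 8 up and 5 down in the control line (10 and 8 with the block) and 7 up and 8 down in the miR-148a line (9 and 9 with the block). Jun (1.84 ± 0.38) and Egr2 (1.59 ± 0.39) were higher and Myc (-1.5 ± 0.31) and Irf4 (-1.40 ± 0.18) lower in the control line. The miR-148a line had Myc at -2.08 ± 0.32, Irf4 at -1.87 ± 0.18, Egr2 at 1.44 ± 0.46 and Jun at 1.39 ± 0.35. Of 12 genes listed as feedback genes of NF-kB, 6 fell and 3 rose in each line, Bcl3, Traf1 and Cyld, with medians of -0.45 in each. Nfkbid, Tnfaip3, Nfkbie and Traf3 fell most, at -1.69, -1.41, -1.18 and -1.01 in the control line and -1.94, -1.74, -1.73 and -1.19 in the miR-148a line. Between the stimulated lines Klf2 alone of these factors was called, higher in the miR-148a line (0.88 ± 0.17, adjusted p = 0.0402), and no feedback gene was. The block called 2 factors higher and 4 lower there, and 3 feedback genes higher. Without stimulation no factor or feedback gene was called (5 factors higher and 1 lower with the block). Klf2 was then 0.55 ± 0.175 higher in the miR-148a line (adjusted p = 0.252, and 0.0228 with the block). Its interaction was 0.33 ± 0.25.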

How the data were processed

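PolyA RNA of 8 libraries was measured, and the authors deposited 1 table of expected counts per gene symbol, raw estimates with no scaling. The submitters' processing notes name the tools edgeR, Bowtie2, Partek (6.15.0730), TopHat2 (2.0.13), cutadapt and CASAVA (1.8) and the builds GRCm38 and mm10. For the counting, no source used here gives the annotation or the strand setting. Of 24081 rows, 27 held calendar dates in place of names (0.213% to 0.235% of counts) and were left out. Counts were rounded (9.54% to 12.8% of values were not whole).

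Counts were fitted with edgeR 4.0.16 in R 4.3.3 (quasi-likelihood F test, 4 group means over 8 libraries, filterByExpr, TMM), with Benjamini-Hochberg adjustment over 11291 genes and a threshold of 0.05. Adjusted p values are from this fit unless another is named, SE follow from its F statistic, and intervals are 95%. Run values are differences of log2 CPM (prior count 2). Counting intervals are exact binomial intervals on summed counts, which like the floors cover counting error only. All groups share 4 residual degrees of freedom. The script was tested on simulated data.

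Nothing says that replicates were separate cultures, so p values reflect the spread among libraries only, possibly a technical one. Each pair of replicates was further apart than sampling noise (mean chi-square per gene 9.43 to 13.6). The run prefix in the labels gives the replicate number, and same-numbered libraries deviated together in all 6 pairs of groups (r = 0.495 to 0.569 across genes, which are not independent replicates), so the numbers pair the libraries. The planned fit has no block, and blocked values stand beside results they change. DESeq2 1.42.0, RLE scaling, no filter, fits of 4 libraries and leaving out each library were alternatives.

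The members, the 5 lists and the markers were chosen with earlier results of these data known. All members are named. Of each list, up to 4 called genes with the largest change per comparison are named. Others were singled out after their values were seen (those at 0, the highest markers of other cell types, Cd93, Cxcr5, and the chosen correlations between members). So were the line differences of S1pr1, Cd97, Klf2 and H2-Ab1 that did not pass without the block. Some genes of these lists are not reported here by name. Copies were sought with blastn 2.17.0 in GENCODE M21 transcripts (at least 95% identity over 100 bases).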

Additional observations from a re-analysis of the deposited data

How the results depend on the processing

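Of 511 values of single members under the alternatives, 454 kept their direction and side of the threshold, 26 kept the direction and lost the call, 18 gained it and 13 changed sign, none of these from a called value. The number of members called in the control line's response was 3, and 7 with the replicate block and 6 without a filter. In the miR-148a line it was 7, and 4 to 8 when a library was left out, with 4 without replicate 1 of the unstimulated or replicate 2 of the anti-IgM group of that line. Between the unstimulated lines it was 0, and 2 with the replicate block. Between the stimulated lines it was 2, and 4 with the replicate block, 0 in the 4 libraries alone, and 0 to 1 when a library was left out. The sign changes came with single libraries left out, for line differences of Cd83 (-0.21 to 0.80) and Icam1 (-0.26 to 0.085) without stimulation, of Cd69 (-0.39 to 0.30) and Icam1 (-0.27 to 0.18) with anti-IgM, and for the interactions of Icam1 (-0.18 to 0.27) and Cd24a (-0.23 to 0.11). The cause was not tested. RLE scaling moved the median of all genes by less than 0.1 on the log2 scale. Cd83 was too low to be fitted in the 4 anti-IgM libraries alone, and counts limit Cd80, Cd83 and Cd86 most.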
